A study of Mus musculus with 49 samples.

Results

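Serotonin receptor genes were followed in the nucleus accumbens (NAc) of mice, in RNA from dopamine D1 and D2 receptor-expressing medium spiny neurons (D1- and D2-MSNs). Of 14 serotonin receptor genes in the counts, 10 were chosen by name: Htr1a, Htr1b, Htr1d, Htr1f, Htr2a, Htr2c, Htr4, Htr5a, Htr6 and Htr7. The rule lists names and uses no measured value. The counts covered 52636 genes in all. All mice were on a C57BL/6J background and carried a transgene that marks cells by the promoter of Drd1 or Drd2, so that any cell that uses or once used that promoter could be included. Nuclear-FACS used Drd1-cre or Drd2-cre mice with Thy1-loxPSTOPloxP-EGFP-F, and nuclei were sorted from frozen tissue (6 D1 and 5 D2 libraries). Whole cell-FACS used mice with a cytoplasmic fluorophore, and papain-treated fresh tissue was sorted (8 D1 and 6 D2 libraries). RiboTag used Drd1-cre or Drd2-cre mice with an HA-tagged Rpl22, and ribosomes were pulled down from fresh tissue (6 D1 and 6 D2 libraries labelled male, 5 D1 and 5 D2 labelled female). The sorted libraries were all labelled male, no group was treated, and each sample came from its own mouse. The age was not given in the sources used here.

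Serotonin reaches the NAc in axons from the raphe nuclei, and most of its receptors act through G proteins. The Htr1 and Htr5 receptors couple mainly to Gi/o, which lowers cAMP. The Htr2 receptors couple to Gq and phospholipase C. Htr4, Htr6 and Htr7 couple to Gs, which raises cAMP. Htr3a and Htr3b form ion channels instead. In MSNs, the Htr1b receptor is known as a presynaptic receptor on their axon terminals, and the Htr2c receptor as a brake on striatal and dopamine signalling.

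Levels are given as FPM, which are CPM computed on DESeq2's effective library sizes within a method, so FPM of different methods are not on a common scale. To compare genes with each other, FPM were divided by the summed exon length (FPKM). Total counts per library (M for mega) were 10.5 to 28.0 M for whole cell, 3.70 to 68.8 M for nuclear and 24.1 to 45.6 M for RiboTag. The background was measured in each library as the counts per kilobase on 1431 olfactory and vomeronasal receptor genes, which are silent in brain neurons for the most part. It was 0.0651 to 0.41 CPM per kilobase in whole cell libraries, 0.00452 to 0.409 in nuclear libraries and 0.000201 to 0.000493 in RiboTag libraries. All 5 nuclear D2 libraries (0.253 or more) lay above all 6 nuclear D1 libraries (0.173 or less). A gene's share of background counts grows with its span.

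The cell type labels were checked against marker genes. The 5 D2-MSN markers (Drd2, Adora2a, Penk, Gpr6 and Sp9) summed to 1567 to 6397 FPM in whole cell D2 against 104 to 352 in D1 libraries, and to 718 to 964 against 90.3 to 233 in RiboTag. In nuclei, this sum was 179 to 401 FPM in D2 against 154 to 728 in D1 libraries, and Penk made up most of the D1 mean. Nuclear Penk ran from 65.1 to 549 FPM in D1 and from 7.44 to 52.4 FPM in D2 libraries. Adora2a (27.3 and 14.1 FPM), Gpr6 (4.37 and 1.01 FPM) and Sp9 (6.92 and 4.76 FPM) also averaged higher in D1 than in D2 nuclei. Only Drd2 averaged higher in D2 nuclei, at 128 FPM (67.6 to 233) in D1 and 237 FPM (154 to 326) in D2 libraries. The sum of the 5 D1-MSN markers (Drd1, Pdyn, Tac1, Isl1 and Chrm4) was higher in D1 libraries without overlap in each method, although in nuclei Isl1 averaged 4.71 FPM in D1 and 5.08 FPM in D2 libraries. Of the 12 RiboTag libraries labelled male, 6 had more than 1 CPM of Xist, the RNA of the inactive X chromosome that marks female cells. In 5 of these, the 4 Y-linked genes (Ddx3y, Eif2s3y, Kdm5d and Uty) summed to 0.743 CPM or less, and 1 had both Xist (2.56 CPM) and Y-linked counts (1.78 CPM). The other 6 had 8.54 to 10.7 CPM of Y-linked genes. The group with Xist held 4 of the 6 D1 and 2 of the 6 D2 libraries. The main results of the members that rest on RiboTag libraries labelled male are also given without this group. Results of other gene lists are given with it only.

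Htr2c and Htr1b were the members called between D1 and D2 libraries. Htr1b was called in nuclei only, where the D2-MSN markers other than Drd2 averaged higher in D1 libraries. Their promoters, 2 of the 9 members' promoters that RefSeq lists here, are shown for orientation, as the table gives them on GRCm38.p6: the 250 bases upstream of the annotated start, read 5′ to 3′ on the gene's strand, with each CCAAT motif (CCAAT or, on the other strand, ATTGG) in capitals. The Htr1b window is chr9:81633833-81634082 on the minus strand, and the Htr2c window is chrX:146962263-146962512 on the plus strand.
Htr1b promoter: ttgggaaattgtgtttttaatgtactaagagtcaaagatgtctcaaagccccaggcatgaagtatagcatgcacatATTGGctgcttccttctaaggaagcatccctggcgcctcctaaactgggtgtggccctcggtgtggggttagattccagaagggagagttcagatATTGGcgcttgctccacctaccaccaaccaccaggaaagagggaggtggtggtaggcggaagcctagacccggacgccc
Htr2c promoter: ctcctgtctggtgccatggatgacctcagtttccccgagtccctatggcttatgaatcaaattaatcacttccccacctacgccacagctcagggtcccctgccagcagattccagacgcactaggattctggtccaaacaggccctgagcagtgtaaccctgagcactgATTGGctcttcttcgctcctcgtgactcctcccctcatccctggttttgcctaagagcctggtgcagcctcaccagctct
Htr1b held 2 CCAAT motifs and Htr2c held 1. Of 32851 RefSeq promoters of the same length, 33.8% held at least 1. Neither window held TATAAA (12.4% of promoters), GGGCGG (32.7%) or TGACGTCA (1.5%), searched on both strands. These matches describe letters only.

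Htr2c and Htr1b were also the members with the most ribosome-bound RNA. In the RiboTag libraries labelled male, Htr1b averaged 1.85 ± 0.276 FPKM (SD, n = 6) among D1 libraries, and its D2 average was 2.22 ± 0.335 FPKM (SD, n = 6). Htr2c averaged 1.31 ± 0.185 FPKM (SD, n = 6) among D1 libraries, and its D2 average was 1.98 ± 0.162 FPKM (SD, n = 6). In D1 libraries of both sex labels, the ranges were apart, with Htr1b above Htr2c. In D2 libraries, the ranges of Htr1b and Htr2c overlapped, and their order could not be told. Htr1f, a Gi-coupled receptor bound by some migraine drugs, came next in all 4 RiboTag groups at 0.487 to 0.652 FPKM on average, and its range overlapped that of the next gene. Htr4, Htr1d and Htr2a followed at 0.374 to 0.593 FPKM on average, with overlapping ranges. Htr6, Htr5a, Htr7 and Htr1a were lowest at 0.0965 to 0.318 FPKM on average, and again no neighbours were apart. Together Htr2c and Htr1b took most of the members' RiboTag counts. The mean share of Htr2c was 37.8 to 47.0% and that of Htr1b 23.4 to 28.2% over the 4 groups. Htr2c spans more exon sequence (9.33 kb) than Htr1b (4.72 kb), so its larger share of counts does not make it the higher of the pair per length.

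**Figure D1:**
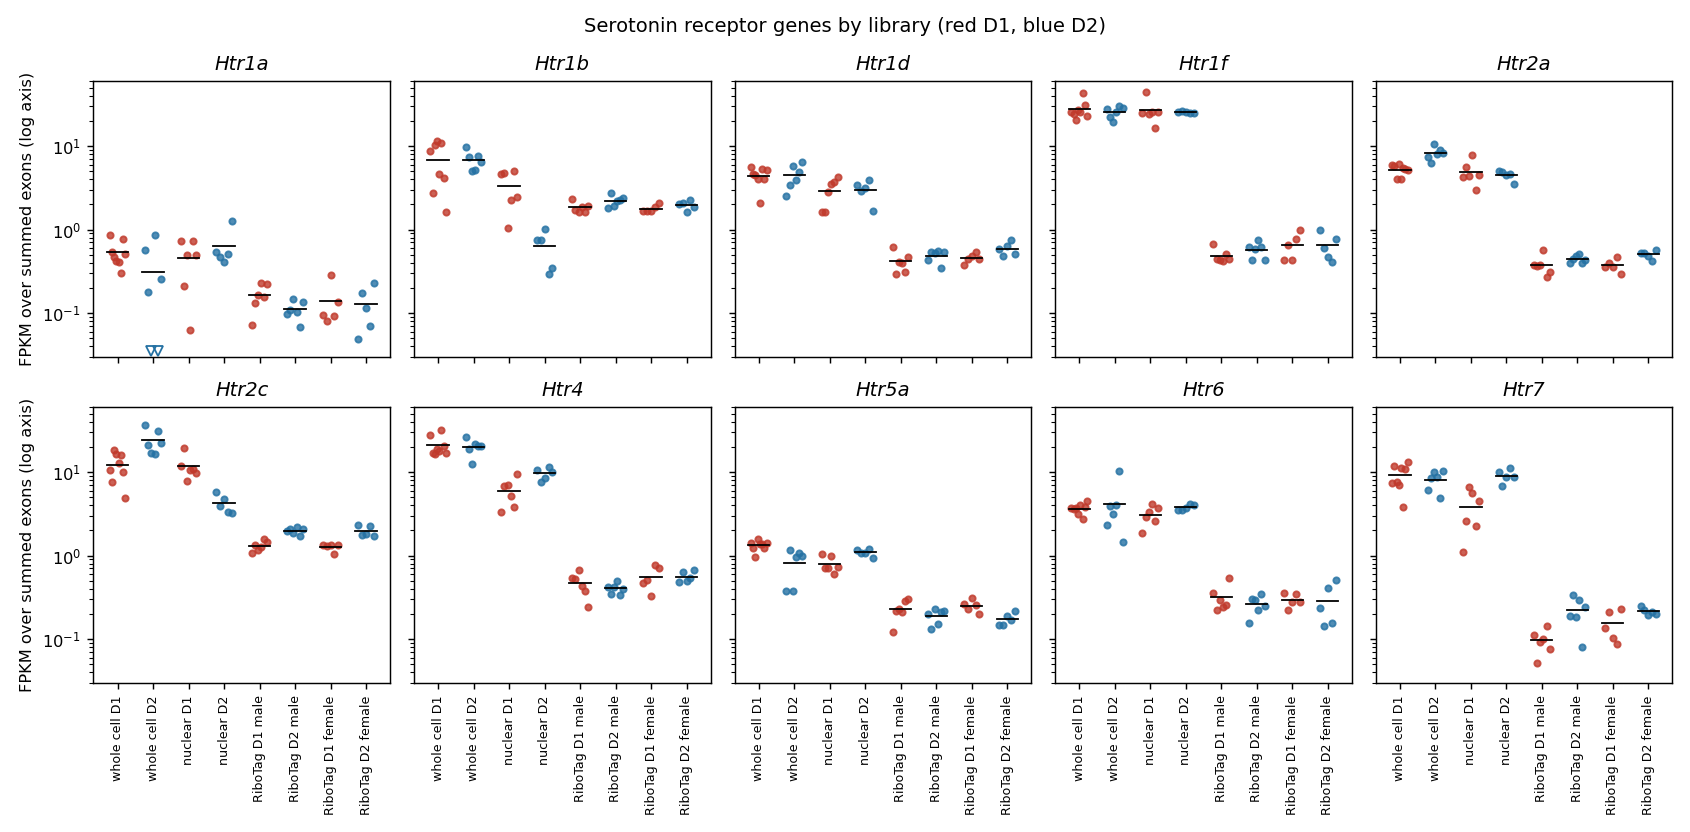
Level of each serotonin receptor gene in each library, as FPKM over summed exons on a log axis, with dots for libraries, bars for group means, red for D1 and blue for D2. FPKM are scaled within each method, so heights of different methods are not on a common scale. In the RiboTag groups Htr1b and Htr2c stand above the other 8 genes. Htr1a had 0 counts in 2 whole cell D2 libraries (open triangles).

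In whole cells and nuclei, the order was another one. Htr1f had the highest mean in all 4 groups, at 25.4 to 27.4 FPKM. Htr4, known for its role in feeding and mood, averaged 20.8 ± 5.71 FPKM (SD, n = 8) over the whole cell D1 libraries, and ran from 12.4 to 26.0 FPKM over the 6 D2 libraries. Htr2c averaged 12.1 ± 4.61 FPKM (SD, n = 8) in the whole cell D1 group, against 24.1 ± 8.06 FPKM (SD, n = 6) for D2. The ranges of Htr1f and of the gene after it overlapped in all but the nuclear D2 libraries. Htr5a and Htr1a were last or next to last in 3 of the 4 groups. In nuclear D2 libraries, Htr1b was last at 0.630 ± 0.304 FPKM (SD, n = 5), a level whose range overlapped that of Htr1a. These values depend on the length used and on the background. Only 1.42% of the Htr1f span, 2.85% of the Htr4 span and 3.97% of the Htr2c span is exon, and counts covered the whole span. Over the gene span, Htr1b was the first member in whole cell D1 libraries, at 5.81 ± 3.35 FPKM (SD, n = 8), and its range was apart from that of the next gene.

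The counts were therefore set against the background of each library. Htr1b was 4.96 to 100 times the background in all whole cell libraries and 7.03 to 334 times in nuclear D1 libraries. Htr7 was under 2 times the background in all 8 whole cell D1, 5 of 6 whole cell D2 and all 5 nuclear D2 libraries. Htr1f was under 2 times the background in 5 of 8 whole cell D1 and 3 of 6 whole cell D2 libraries. At these multiples a receptor's own RNA could hardly be told from background. In RiboTag libraries each member was above 6 times the background in every library, the lowest being Htr7 at 6.59 times. Htr7 had 5 to 40 counts per library there and Htr1a 9 to 44, so their values were thin. These multiples do not tell RNA of the marked cells from RNA of other cells in the pull-down. In RiboTag libraries labelled male, Drd1 averaged 27.1 FPM in D1 and 7.05 FPM in D2. Drd2 averaged 7.19 FPM in D1 and 47.4 FPM in D2.

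**Figure D2:**
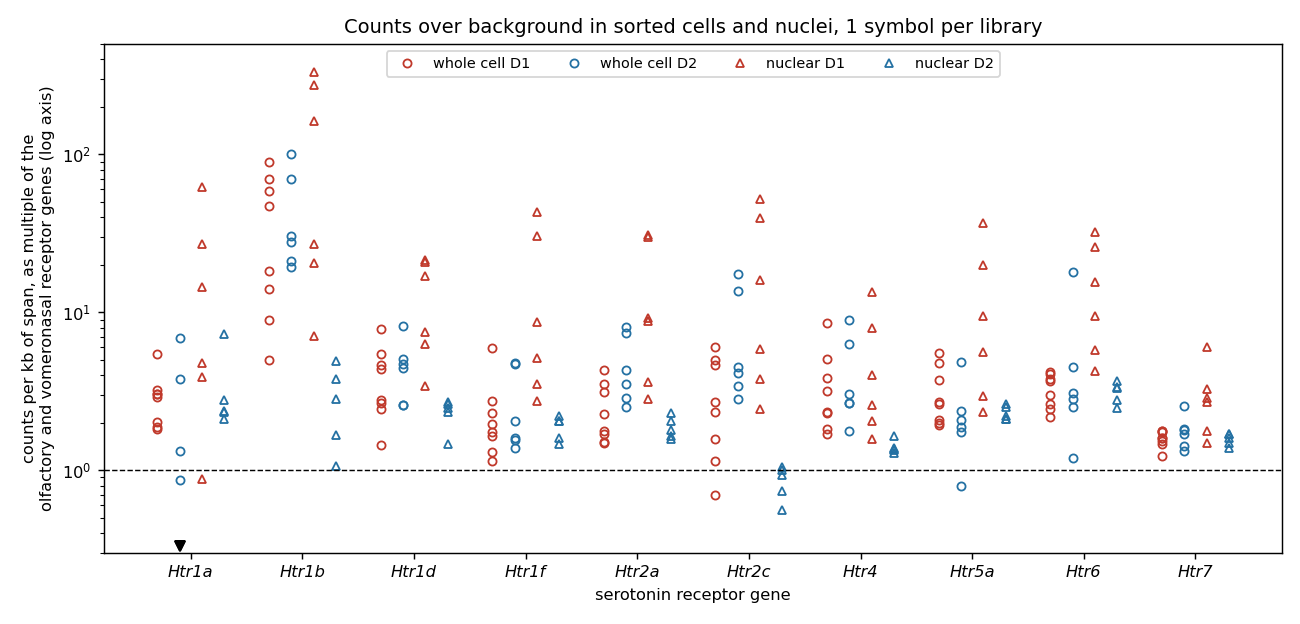
Counts per kilobase of gene span of each serotonin receptor gene in each sorted library, as a multiple of the library's olfactory and vomeronasal receptor genes, on a log axis with the background at the dashed line. Circles are whole cells, triangles nuclei, red D1 and blue D2, and the filled mark at the bottom stands for 2 libraries with 0 counts. In nuclear D2 libraries, Htr2c lies at 0.557 to 1.06 times the background.

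Htr2c (ENSMUSG00000041380, chrX:146962513-147197277 on GRCm38, plus strand, span 235 kb) averaged higher in D2 than in D1 libraries in RiboTag of both sex labels and in whole cells. In nuclei it averaged lower in D2 libraries. Of these differences, only the call in RiboTag libraries labelled female, made without the FPKM filter, stayed in all its 15 alternatives. In RiboTag libraries labelled female, the D1 libraries had 12.4, 12.1, 12.6, 9.66 and 12.6 FPM, and the D2 libraries had 21.9, 16.3, 17.1, 21.2 and 15.9 FPM. All 5 D2 libraries were above all 5 D1 libraries. D2 exceeded D1 by a log2 fold change of 0.64 (SE 0.10, edgeR adjusted p = 5.23e-04). In RiboTag libraries labelled male, the lowest, median and highest values were 10.1, 12.0 and 14.7 FPM in D1 (n = 6) and 16.2, 18.9 and 20.3 FPM in D2 (n = 6). The groups did not overlap here either, and the log2 fold change was 0.60 (SE 0.08, edgeR adjusted p = 6.84e-06). Without the 6 libraries with Xist, which leaves 2 D1 and 4 D2 libraries, it was 0.35 (edgeR adjusted p = 0.0461), under the fold change of 0.38 that a call needed. These tests were made without the FPKM filter. With the filter the study used, over the gene span, Htr2c was not tested in RiboTag libraries, as its FPKM over the whole span was under the 0.1 needed. Without the filter, 1.83% of 10941 genes were called in libraries labelled female and 3.12% of 10677 in those labelled male, and Htr2c was the 1 member called in each, of 8 and 7 tested. With the filter, 0 of 4 members tested were called in libraries labelled female (1.9% of 7057 genes) and 0 of 2 in those labelled male (2.56% of 6784 genes). DESeq2 also called 0 in both filtered comparisons, where 1127 and 1467 genes had an unadjusted p under 0.05.

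In whole cells, Htr2c ranged from 45.9 over a median of 109 to 172 FPM in D1 (n = 8) and from 152 over a median of 202 to 339 FPM in D2 (n = 6). The ranges overlapped, and 4 of the 6 D2 libraries lay above all D1 libraries. Htr2c was 0.694 to 6.00 times the background in D1, with 3 of 8 libraries under 2 times, and 2.83 to 17.5 times in D2. Against the 9 background genes on chromosome X, Htr2c stood at 4.51 times in D1 and 14.1 times in D2. The fitted log2 difference was 0.80 (SE 0.16, edgeR adjusted p = 0.0249). Htr2c was the 1 member called of 3 tested, where 1.06% of 16352 genes were called. It passed the FPKM filter through D2 libraries only, at up to 1.45 FPKM over the span against up to 0.731 in D1. Its entry into this test thus depended on the group where it was higher. The call was lost without whole cell D1 replicate 1 (log2 fold change 0.77, edgeR adjusted p = 0.0549), without the FPKM filter (0.98, 0.178) and after background subtraction (1.33, 0.298), while the direction held in all 26 alternatives. Whole cell D1 and D2 libraries did not share sequencing lanes, so lane and cell type cannot be told apart there.

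In nuclei, Htr2c ranged from 73.3 over a median of 99.8 to 180 FPM in D1 (n = 6), and the D2 libraries had 53.8, 37.0, 43.7, 31.2 and 30.3 FPM. All D2 libraries were below all D1 libraries. D2 minus D1 was -1.79 on the log2 scale without the FPKM filter (SE 0.26, edgeR adjusted p = 0.00565), and 2 of 10 members were called where 23.6% of 30791 genes were. The filtered fit did not test Htr2c. The D2 level could not be told from background: it was 0.557 to 1.06 times that of the olfactory and vomeronasal receptor genes, most of which are autosomal. Those on chromosome X, where Htr2c lies, had about 0.527 of the autosomal density in nuclei, and against these 9 genes Htr2c stood at 1.64 times in nuclear D2 and 8.29 times in nuclear D1 libraries. With the common background subtracted, the log2 fold change was -6.72 and was not called, since it did not meet both the mean level and the SE that a call in nuclei needed. With the X-linked background subtracted, it was -2.23 (edgeR adjusted p = 0.0149) and called. The difference was also present within each sequencing lane, at -1.26 in lane 4 (3 D1 and 2 D2 libraries) and -1.56 in lane 5 (3 and 3), as means of log2 FPM.

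Other cells can carry Htr2c, which the choroid plexus is known for. The 5 choroid plexus markers (Ttr, Folr1, Clic6, Kl and Otx2) summed to 2.33 to 3.77 FPM in RiboTag D1 and 2.98 to 3.81 FPM in RiboTag D2 libraries, with Otx2 at 0 in all RiboTag D1 libraries labelled female and Folr1 at 0 in all those labelled male. In whole cells this sum was 65.7 to 96.6 FPM in D1 and 45.6 to 93.7 in D2. The 4 cholinergic interneuron markers (Chat, Slc18a3, Slc5a7 and Lhx8) were higher in RiboTag D2 (2.39 to 7.32 FPM) than in RiboTag D1 (0.700 to 1.55). No cholinergic marker was at 0 throughout a group. The 5 GABA interneuron markers (Pvalb, Sst, Npy, Vip and Kit) summed to 13.5 to 15.3 FPM in D1 and 5.69 to 13.2 FPM in D2 RiboTag libraries labelled male, and to 10.6 to 21.4 FPM in D1 and 3.94 to 12.2 FPM in D2 libraries labelled female, with none at 0 throughout a group. These ranges were apart in libraries labelled male and overlapped in those labelled female. The part of these in the Htr2c result was not tested. In such bulk samples, fewer cells of a type and less RNA per cell cannot be told apart.

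Htr1b (ENSMUSG00000049511, chr9:81628291-81633828, minus strand) was lower in D2 nuclei, and did not pass the test in the other methods. Nuclear D1 libraries ranged from 4.97 over a median of 16.7 to 23.9 FPM (n = 6), and nuclear D2 libraries had 3.54, 3.53, 4.78, 1.40 and 1.61 FPM. The groups did not overlap. The log2 difference of D2 from D1 was -1.47 with the FPKM filter (SE 0.32, edgeR adjusted p = 0.0115). Htr1b was the 1 member called of 2 tested there, and 12.2% of 9228 genes were called. It passed that filter through D1 libraries only, at up to 4.32 FPKM over the span against up to 0.864 in D2. Its entry into the filtered test thus depended on the group where it was higher. Without the filter it was -2.70 (SE 0.49, edgeR adjusted p = 0.00565). Within lanes the difference was -2.19 in lane 4 and -1.88 in lane 5, and the nuclear D2 libraries stood at 1.06 to 4.89 times the background. 2 of these 5 libraries were under 2 times the background. Ppp1r1b, the gene of an MSN phosphatase inhibitor, was also lower in D2 nuclei (log2 fold change -1.94), and its part in the Htr1b and Htr2c values of nuclei was not tested.

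In whole cells, Htr1b ranged from 7.74 over a median of 31.7 to 53.9 FPM in D1 and from 23.5 over a median of 32.4 to 45.8 FPM in D2. All D2 values lay within the D1 range, and the log2 fold change was -0.10 (SE 0.25, edgeR adjusted p = 0.938). In RiboTag, Htr1b ranged from 7.57 to 11.1 FPM in D1 and from 8.61 to 12.9 FPM in D2 libraries labelled male. The ranges overlapped, with 2 of 6 D2 libraries above all D1 libraries, and the log2 fold change was 0.25 (SE 0.10, edgeR adjusted p = 0.118), or 0.23 without the libraries with Xist (edgeR adjusted p = 0.344). In libraries labelled female it was 0.12 (SE 0.09, edgeR adjusted p = 0.604). Htr1b shares sequence with D430036J16Rik on the other strand, and counting ignored strand, so fragments of this pair cannot be told apart. D430036J16Rik, looked up after the values of Htr1b were seen, averaged 19.9 FPM in nuclear D1 and 5.68 FPM in nuclear D2 libraries, so it moved with the Htr1b difference in nuclei. Over the RiboTag groups it averaged 3.99 to 4.99 FPM, beside 8.43 to 10.5 FPM for Htr1b. Its part in the Htr1b result was not tested.

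**Figure D3:**
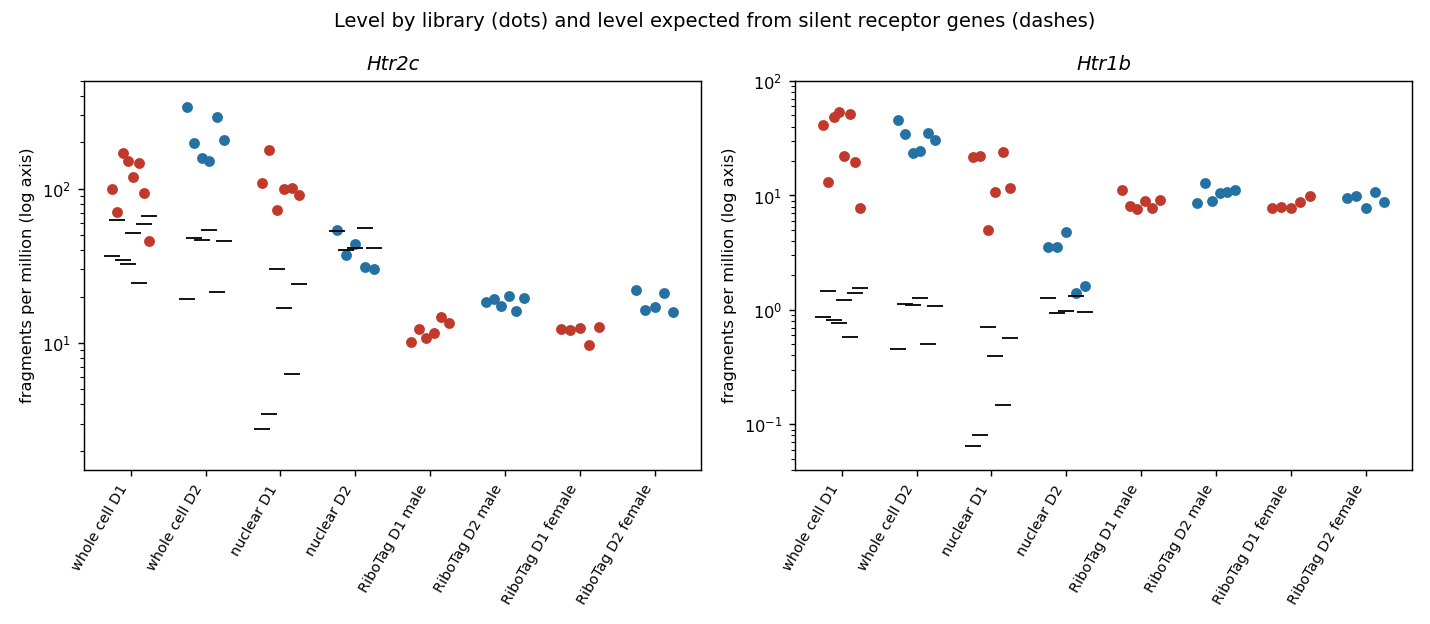
FPM of Htr2c (left) and Htr1b (right) in each library on log axes, red for D1 and blue for D2, with dashes at the level that the olfactory and vomeronasal receptor genes of the same sorted library give over the gene's span. Htr2c in nuclear D2 libraries (30.3 to 53.8 FPM) lies at the dashes, and in RiboTag libraries all D2 dots lie above all D1 dots of the same sex label.

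Whether the cell type difference itself differed between methods was tested as an interaction in 1 fit of all libraries labelled male. For whole cell against nuclear, 4 of 10 members were called, where 21.9% of 29901 genes were. The whole cell difference exceeded the nuclear one by 2.65 for Htr2c (SE 0.35, edgeR adjusted p = 8.93e-06), by 2.50 for Htr1b (SE 0.52, adjusted p = 9.53e-04) and by 1.04 for Htr2a (SE 0.27, adjusted p = 0.00546), all on the log2 scale. For Htr7 the interaction was -1.15 (SE 0.42, edgeR adjusted p = 0.047), and it was lost in 7 of 14 alternatives. Among these were leaving out nuclear D2 replicate 1, 3, 5 or 7, with values of -1.16 to -1.10 and edgeR adjusted p-values of 0.0613 to 0.0831. The Htr2a call was lost with DESeq2's size factors (0.64, edgeR adjusted p = 0.0737). For nuclear against RiboTag, Htr2c (-2.34, SE 0.36, edgeR adjusted p = 3.38e-04) and Htr1b (-2.84, SE 0.54, adjusted p = 0.00151) were called, where 14.6% of genes were. Without the 6 libraries with Xist, the values were -2.25 for Htr2c and -2.98 for Htr1b, each with an edgeR adjusted p of 0.112, and whole cell against nuclear kept Htr2c, Htr1b and Htr2a but not Htr7 (-1.09, edgeR adjusted p = 0.0686). For whole cell against RiboTag, no member was called (0.12% of genes, 36 in all). The interaction of Htr2c was 0.31 there (SE 0.33, edgeR adjusted p = 1), so the whole cell and RiboTag differences of Htr2c were not shown to differ. DESeq2 called 118 genes and no member. At an unadjusted p under 0.05, 1337 genes passed in that contrast, Htr7 alone among the members (-1.36, SE 0.46).

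**Figure D4:**
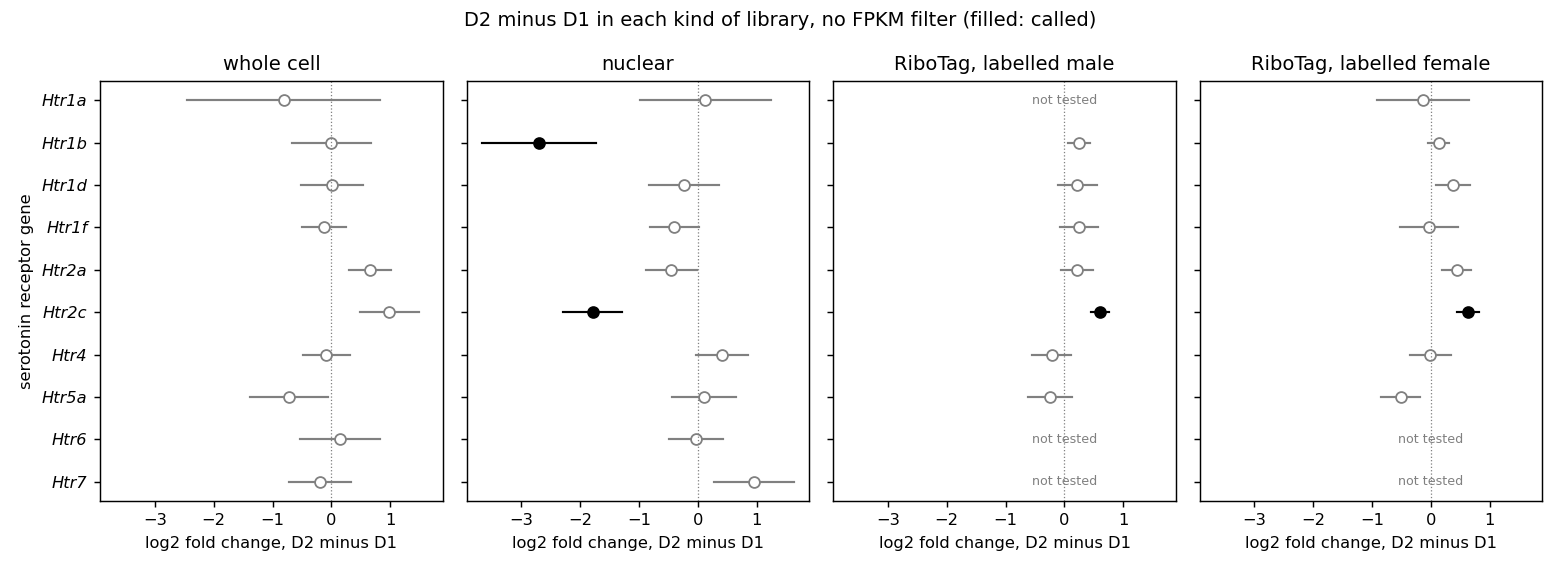
Log2 fold change of D2 over D1 for each serotonin receptor gene within each kind of library, from edgeR without the FPKM filter, with lines for the 95% interval and filled dots for calls. Htr2c lies above 0 in whole cells and in both RiboTag sets and below 0 in nuclei, and Htr1b is called in nuclei only, below 0.

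Htr2a (chr14:74640840-74709494, plus strand), the other Gq-coupled member and the main target of psychedelic drugs, was higher in all 6 whole cell D2 libraries than in any D1 library. Its values ran from 22.6 over a median of 30.2 to 33.8 FPM in D1 and from 35.1 over a median of 46.1 to 59.4 FPM in D2. These were 1.48 to 4.30 times the background in D1, with 4 of 8 libraries under 2 times, and up to 8.13 times in D2. The fitted difference was 0.65 on the log2 scale (SE 0.18), and with an edgeR adjusted p of 0.231 it was not called in the fit without the FPKM filter, the only one that tested it. In RiboTag libraries labelled female, Htr2a stood at 1.99, 2.23, 1.97, 2.62 and 1.66 FPM in D1 and at 2.97, 2.93, 2.72, 2.36 and 3.16 FPM in D2, with 4 of 5 D2 libraries above all D1 libraries. The fitted difference was 0.44 (SE 0.13, edgeR adjusted p = 0.0735), and it was called without RiboTag D1 female replicate 5 (0.53, edgeR adjusted p = 0.0305). In libraries labelled male it was 0.21 (SE 0.14, edgeR adjusted p = 0.442), or 0.64 without those with Xist (edgeR adjusted p = 0.0666). In nuclei it was -0.45 (SE 0.22, edgeR adjusted p = 0.125). The ranges overlapped in both, and 3 of 5 nuclear D2 libraries were under 2 times the background.

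The other Gi/o-coupled members did not pass the test between D1 and D2 in any method. Htr5a (chr5:27842149-27855088, plus strand) had 1.41, 1.24, 1.65, 1.37 and 1.06 FPM in RiboTag D1 and 0.798, 0.786, 1.01, 0.906 and 1.18 FPM in RiboTag D2 libraries labelled female, and 4 of 5 D2 libraries were below all D1 libraries. D2 minus D1 was -0.52 on the log2 scale (SE 0.16, edgeR adjusted p = 0.0804). In libraries labelled male it was -0.23 (SE 0.18, edgeR adjusted p = 0.527), or -0.56 (edgeR adjusted p = 0.239) without those with Xist. Htr5a passed the FPKM filter through D1 libraries only, at up to 0.1275 (female) and 0.124 (male) over the span, against up to 0.0909 and 0.0951 in D2. Its entry into these tests thus depended on the group where it was higher. Without the filter, the values were -0.51 (edgeR adjusted p = 0.119) and -0.24 (edgeR adjusted p = 0.551). In whole cells, Htr5a ran from 5.11 to 8.57 FPM in D1 and from 2.01 to 6.27 FPM in D2, and the log2 fold change was -0.72 (SE 0.34, edgeR adjusted p = 0.83). Htr1d (chr4:136423524-136444398, plus strand), a relative of Htr1b, had a log2 fold change of 0.37 (SE 0.14, edgeR adjusted p = 0.189) in RiboTag libraries labelled female, where 3 of 5 D2 libraries lay above all D1 libraries. Htr1d passed the filter there through D2 libraries only, at up to 0.115 FPKM over the span against up to 0.0826 in D1. Without the filter its value was 0.38 (edgeR adjusted p = 0.209). In the other 3 comparisons its ranges overlapped, and its log2 fold changes were -0.24 to 0.22 without the FPKM filter. Htr1f (chr16:64924729-65105854, minus strand) differed by -0.40 to 0.24, with overlapping ranges in all 4 comparisons.

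Htr1a (chr13:105443639-105448122, plus strand, a single exon), which is an autoreceptor of serotonin neurons, was the lowest or next to lowest member per exon length in all 8 groups. In the filtered nuclear fit its log2 fold change was 1.21 (SE 0.49, edgeR adjusted p = 0.102), and without the filter it was 0.13 (SE 0.57, edgeR adjusted p = 0.858). Htr1a passed that filter through nuclear D2 libraries only, at up to 1.28 FPKM over the span against up to 0.731 in D1. In the whole cell D2 libraries it had 0 counts in 2 of 6 libraries and up to 55 counts in the others. A count of 0 allows up to 3 counts, and the 3-count level of these D2 libraries is 0.107 to 0.276 CPM. The 3 serotonin neuron markers (Tph2, Slc6a4 and Fev) summed to 0.0984 FPM or less in all RiboTag libraries, with Fev at 0 throughout 3 of the 4 groups. In sorted libraries this sum was 0.716 to 79.8 FPM, where the background alone would give a median of 7.11 to 28.4 FPM per group.

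Among the Gs-coupled members, Htr7 (chr19:35958734-36057507, minus strand) was tested between D1 and D2 in whole cells and nuclei without the FPKM filter, and edgeR did not call it there on all libraries with TMM normalization. The nuclear D2 libraries had 33.6, 23.3, 29.4, 37.6 and 29.4 FPM, all above the D1 libraries, which ranged from 3.77 over a median of 12.0 to 22.4 FPM. The fitted D2 minus D1 value was 0.96 on the log2 scale (SE 0.34), with an edgeR adjusted p of 0.0549, and all 5 D2 libraries were under 2 times the background. It was called with DESeq2 (1.25, DESeq2 adjusted p = 0.011), with DESeq2's size factors in edgeR (1.24, edgeR adjusted p = 0.0348) and without nuclear D1 replicate 3 (1.18, edgeR adjusted p = 0.0155). In RiboTag libraries labelled male, Htr7 ran from 0.174 to 0.492 FPM in D1 and from 0.273 to 1.15 FPM in D2, with 5 of 6 D2 libraries above all D1 libraries, but its counts were too low to be tested. Htr4 differed by -0.22 to 0.41 over the 4 comparisons without the FPKM filter, where the 0.41 of nuclei was called without nuclear D1 replicate 6 (0.63, edgeR adjusted p = 0.0459), and Htr6 by -0.02 in nuclei and 0.15 in whole cells. Htr6 (chr4:139061108-139075570, minus strand) stood at 23.8 FPM in whole cell D2 replicate 5, where the other 5 D2 libraries had 3.39 to 9.34 FPM.

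Between methods, the members moved unequally. In the joint fit, all genes tested had a median log2 difference of -1.86 for RiboTag minus whole cell in D1 and -1.87 in D2, and calls were made on 80.5% and 81.2% of 29901 genes, so 7 of 10 members called in each case is a share near that of all genes. Directions here are those of the joint fit with its TMM normalization, and are not amounts per total counts. In CPM of total counts, the 10 members together averaged 482 in whole cell D1 and 30.2 in RiboTag D1 libraries labelled male. The D2 averages were 468 and 37.5 CPM. On the scale of the fit, Htr1b was higher in RiboTag by 1.44 in D1 (SE 0.33, edgeR adjusted p = 2.2e-04) and 1.78 in D2 (SE 0.37, edgeR adjusted p = 5.18e-05). Htr1a was 1.65 and 1.92, and Htr5a 0.80 and 1.31, in D1 and D2, also higher in RiboTag. Htr7 (-3.17 and -1.80), Htr1f (-2.46 and -2.06), Htr4 (-2.13 and -2.21) and Htr2a (-0.43 and -0.82) were lower. Htr1f and Htr4 lay below the median of all genes in both cell types, Htr7 below it in D1 only, and Htr2a above it in both. After background subtraction the D1 calls of Htr5a (0.90, edgeR adjusted p = 0.0755) and Htr2a (-0.08, edgeR adjusted p = 0.767) were lost. Without the libraries with Xist, the Htr2a call in D1 was lost (-0.54, edgeR adjusted p = 0.0951), and the other calls stayed, with Htr1b at 1.67 and 1.98 and Htr5a at 1.46 and 1.67 in D1 and D2. Htr2c, Htr1d and Htr6 were not called, and Htr2c stood at 0.12 (SE 0.23) and -0.19 (SE 0.24). The 3 members higher in RiboTag are those with the larger share of exon in their span: Htr1a (100%), Htr1b (85.3%) and Htr5a (41.5%). The 3 of lowest exon share, Htr1f (1.42%), Htr4 (2.85%) and Htr7 (3.44%), were lower in both cell types, while Htr2c (3.97%) was not called. In between, Htr2a (8.17%) was lower, and Htr1d (15.3%) and Htr6 (16.2%) were not called. The part of exon share in these differences was not tested.

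For nuclear minus whole cell, 3 of 10 members were called in D1 (19.1% of genes) and 4 in D2 (20.2%). In D1, Htr1f (0.56, SE 0.18) and Htr2a (0.53, SE 0.18) were higher in nuclei and Htr4 (-1.23, SE 0.22) was lower. The Htr2a call was lost with DESeq2's size factors (0.42, edgeR adjusted p = 0.0905). In D2, Htr1b (-3.00, SE 0.42, edgeR adjusted p = 2.56e-06) and Htr2c (-2.14, SE 0.27, edgeR adjusted p = 5.43e-07) were lower in nuclei, Htr4 (-0.68, SE 0.24) was lower and Htr5a (0.78, SE 0.27) higher. Leaving out any 1 nuclear D2 library (replicate 1, 2, 3, 5 or 7) ended the Htr4 call (-0.71 to -0.62, edgeR adjusted p = 0.0552 to 0.0938). Leaving out replicate 1, 2, 3 or 5 ended the Htr5a call (0.77 to 0.78, edgeR adjusted p = 0.059 to 0.0667). Method, mouse line and tissue handling cannot be told apart in these contrasts.

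Between RiboTag libraries labelled female and male, 3 members could be tested. Htr1a, Htr1b and Htr5a passed the filter, and edgeR called 0 of them in D1 (0% of 7172 genes) and in D2 (0.0697%), as did DESeq2. At an unadjusted p under 0.05, 561 genes passed in D1 and 521 in D2, and no member did. For Htr1b the log2 difference of female over male was -0.02 (SE 0.10) in D1 and -0.15 (SE 0.10) in D2. As 6 of the 12 libraries labelled male carried Xist, the labels do not separate the sexes. The cell type difference of Htr1b in female minus that in male libraries was not called either (-0.13, SE 0.15, edgeR adjusted p = 0.895). Without the 6 libraries with Xist, the female over male value of Htr1b was 0.06 in D1 and -0.05 in D2. Again no member was called, while 7 genes were called in D1.

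The other parts of the serotonin system were read from lists. Of 7 genes that make, store, carry or degrade serotonin (Tph1, Tph2, Ddc, Slc6a4, Slc18a2, Maoa and Maob), none passed the filter in any method and without it edgeR called 0 of 7 tested in nuclei and whole cells and 0 of 3 in each RiboTag set. Tph2 and Slc6a4, which mark serotonin neurons, and Tph1, the form used outside the brain and in the pineal gland, were at 0.0900 FPM or less in RiboTag. Ddc, Slc18a2 and Maoa, which dopamine axons or other cells also use, stood at 0.149 to 1.38, 0.335 to 1.16 and 1.40 to 2.48 FPM over the RiboTag libraries. The ion channel gene Htr3b had 0 counts in all 22 RiboTag libraries, which allows up to 3 counts, or 0.0657 to 0.125 CPM, in each. Htr3a had at most 7 counts and Htr5b at most 3, and Htr2b, which overlaps Psmd1 on the other strand and was looked up after values were seen, was 0 to 0.370 FPM.

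Of 25 genes that receptors signal through (G proteins, kinases, potassium channels and scaffolds), 3 of 17 tested were called in nuclei, where 12.2% of all genes were, all 3 lower in D2, with a list median of -0.29 against 0.03 for all genes. These were the G protein gene Gnal (-0.71), the phosphatase inhibitor gene Ppp1r1b (-1.94) and Rgs4 (-2.24), a brake on G proteins, which were named after their values were seen. Of all 1130 genes called in that nuclear fit, 836 were lower in D2. Without the FPKM filter, 18 of 25 were called in nuclei, where 23.6% of all genes were. All 18 were lower, with a list median of -1.09 against 0.26 for all genes. Of all 7274 genes called without the filter, 5938 were lower in D2, so most calls went this way beyond the list too.

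In whole cells 1 of 19 coupling genes was called (1.06% of all genes), lower in D2. In RiboTag 2 of 18 were called in each sex label, again all lower in D2. Calls there were made on 2.56% of all genes in libraries labelled male and 1.9% in those labelled female. Of all genes called, 115 of 174 were lower in D2 in whole cells. In RiboTag these were 110 of 174 in libraries labelled male and 83 of 134 in those labelled female. The list medians of 0.03, 0.03 and 0.05 stood beside -0.09 in whole cells and near 0 in RiboTag for all genes. The genes called in at least 2 comparisons were Gnai1, a Gi alpha subunit that Htr1 receptors can use, and Kcnj9, a potassium channel subunit that Gi/o receptors can open. Gnai1 was lower in D2 in RiboTag libraries labelled male (log2 fold change -0.40, SE 0.05, edgeR adjusted p = 1.13e-06) and female (-0.51, SE 0.06, edgeR adjusted p = 4.11e-06). In whole cells it was lower by a log2 fold change of -0.79 (SE 0.15, edgeR adjusted p = 0.0148), a call that was lost without the FPKM filter (-0.61, edgeR adjusted p = 0.641). Kcnj9 was lower in D2 in RiboTag libraries labelled male (-0.58, SE 0.09, edgeR adjusted p = 3.59e-05) and female (-0.44, SE 0.10, edgeR adjusted p = 0.0102).

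Genes whose level followed Htr1b or Htr5a most closely over the 22 RiboTag libraries were named by Pearson's r among 6701 genes. For Htr1b these were Cacng4 (0.883), Rundc1 (0.866) and D430036J16Rik (0.85), the last sharing sequence with it. For Htr5a they were Wdr1 (0.851), Hk1 (0.797) and Id2 (0.792). The libraries of a cell type share its differences, so these values are descriptions only. Htr2c and the other members did not pass the filter for this step.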

How the data were processed

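RNA from nucleus accumbens MSNs was sequenced in 49 samples. According to the labels and the study's methods, the authors aligned reads to GRCm38 with HISAT2 2.0.5 and counted fragments with featureCounts. They deposited raw counts per gene, with introns included and strand ignored. A fragment over several genes was counted for each. Repeat columns of a sample were summed, giving 47 libraries, grouped by the method, cell type and sex in the column names. Repeats were also taken from these names. For whole cells, the sample titles and the paper each give another split of D1 and D2 samples than the columns do. The highest correlation between 2 libraries was 0.985, and 0 pairs were identical.

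Gene spans and exons came from GENCODE (GRCm38), with 52489 of 52636 IDs matched. Libraries held 3.70 to 68.8 M fragments, so a floor of 3 counts was 0.0436 to 0.811 CPM. Such floors and intervals account for counting error alone. Genes needed over 1 FPM in 2 libraries, then FPKM over the gene span of at least 1 in 1 library and at most 50000 in sorted samples, or 0.1 in 2 libraries in RiboTag. Counts were tested with edgeR 4.0.16 (quasi-likelihood, Benjamini-Hochberg) in place of the study's DESeq2, in R 4.3.3. A call needed an adjusted p up to 0.05, an absolute log2 fold change over 0.38 and a mean level over the 25th percentile, and in nuclei an SE under the 75th. Contrasts between methods used 1 joint fit of the libraries labelled male, with the first 2 criteria. DESeq2 1.42.0 and limma 3.58.1, other normalizations, filters, lengths, lanes, a replicate block, background subtraction and leaving out each replicate were alternatives. Fits without the FPKM filter with their alternatives, the X-linked background and the removal of libraries with Xist were chosen after seeing the data. The code was tested on simulated data. Python 3.11.15 was used for sequences and figures.

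The members and lists were chosen with earlier results of these data known. All members were named, and of a list those called in at least 2 of the 4 cell type comparisons in 1 direction, and the 3 genes most correlated with each member tested in both RiboTag comparisons. Results of some other cell type marker lists are not reported here.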

Additional observations from a re-analysis of the deposited data

Results flagged for a closer look

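Levels were screened for a library far from the rest of its group, as the gap to the nearest library over the range of the group. Of 80 groups, 9 were past the 95% limit of Dixon's test, and chance gives about 1 in 20. Htr1a stood high in nuclear D2 replicate 7 (5.74 FPM against 1.84 to 2.43 in the others, ratio 0.848) and in RiboTag D1 female replicate 4 (1.30 against 0.357 to 0.601, ratio 0.741). Htr1f stood high in whole cell D1 replicate 6 (112 FPM against 52.4 to 79.3, ratio 0.549), in nuclear D1 replicate 2 (115 against 41.9 to 66.6, ratio 0.66) and in RiboTag D1 male replicate 1 (1.75 against 1.09 to 1.30, ratio 0.679). Htr2c stood high in nuclear D1 replicate 2 (180 FPM against 73.3 to 109, ratio 0.666) and low in RiboTag D1 female replicate 5 (9.66 against 12.1 to 12.6, ratio 0.824). Htr1d was low in whole cell D1 replicate 5 (6.58 FPM against 12.8 to 17.8, ratio 0.552), and Htr6 was high in whole cell D2 replicate 5 (23.8 against 3.39 to 9.34, ratio 0.708).

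The D2 minus D1 difference itself was called different between methods for 4 members. Whole cell minus nuclear, it was 2.5 for Htr1b, 1.04 for Htr2a, 2.65 for Htr2c and -1.15 for Htr7 on the log2 scale. Nuclear minus RiboTag, it was -2.84 for Htr1b and -2.34 for Htr2c. The Htr7 call was lost in 7 of 14 alternatives and the Htr2a call with DESeq2 and with its size factors. Both nuclear minus RiboTag calls were lost without the libraries with Xist (edgeR adjusted p = 0.112 for each). All nuclear D2 libraries also had more background than all nuclear D1 libraries. Mouse line, tissue handling and RNA fraction cannot be told apart in these differences.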

How the results depend on the processing

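Over 1990 values of single members under the alternatives, 1922 kept their side of the threshold, 43 lost a call, 25 gained one and 0 changed direction while called, and 115 that were not called had the opposite sign. In the filtered nuclear comparison the 1 member called became 2 without the FPKM filter and with the filter of the other methods, 3 with summed exons (Htr2c, Htr1b and Htr7) and 0 with the replicate block. In whole cells the 1 member called became 0 without the FPKM filter, with summed exons, the other filter, the replicate block, either background subtraction, and without whole cell D1 replicate 1 (0 to 1 over the replicates left out). In RiboTag, 0 became 1 (Htr2c) in each sex label without the FPKM filter or with summed exons. Without the filter, nuclei had 2 members called, 4 with DESeq2, 0 with the replicate block and 1 after background subtraction. RiboTag male had 1, and 0 without libraries with Xist, and RiboTag female 1 to 2 over the replicates left out. For nuclear minus whole cell in D2, 4 became 2 to 3 on leaving out 1 library, and for nuclear against RiboTag, 2 became 0 without libraries with Xist (Htr1b -2.98 and Htr2c -2.25). Causes were not tested.

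Counts of all genes called moved more. Nuclei had 1130, then 7274, 7350 and 7253 with the 3 other filters and 0 with the block. Whole cells had 174, then 707 with DESeq2, 34, 26 and 34 with the filters, 92 with the block, 328 with the repeat column apart, 510 with lanes apart and 114 after background subtraction. RiboTag male had 174, then 631 by adjusted p alone, 333, 331 and 43 with the filters, and RiboTag female 134, then 319 by adjusted p alone. The interactions gave 6553 and 4356 for whole cell and RiboTag against nuclear, 12614 and 14479 with limma, and 36 for whole cell against RiboTag, 118 with DESeq2, 125 with limma. Without libraries with Xist, nuclear against RiboTag gave 11 and whole cell against RiboTag 3. Leaving out 1 library gave 370 to 1489 in nuclei (lowest without nuclear D2 replicate 5, highest without nuclear D1 replicate 3) and 3857 to 11209 there without the FPKM filter (from the same 2 libraries). It gave 59 to 624 in whole cells (lowest without whole cell D1 replicate 1, highest without D1 replicate 8), 4179 to 5985 for whole cell against nuclear and 2620 to 4325 for nuclear against RiboTag (both lowest without nuclear D2 replicate 5). Female against male gave 0 in D1 (0 to 28 over the replicates left out, 10 with the block, 7 without libraries with Xist). In D2 it gave 5 (5 to 8, and 0 with the block). Without the FPKM filter, whole cells had 34 (172 with DESeq2, 16 with the block), nuclei 0 with the block, and by adjusted p alone RiboTag male had 910 and female 391.

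Same-numbered libraries share only a number: their deviations correlated at -0.543 to 0.431 in nuclei, -0.61 to 0.315 in whole cells, -0.0842 to 0.111 in RiboTag male and -0.0242 to 0.203 in RiboTag female, and 1, 0, 1 and 1 correlated best with their own number. With the replicate block, Htr2c was 0.71 in whole cells (adjusted p = 0.0794 by edgeR), and in nuclei Htr1b was -1.41 with the FPKM filter (edgeR adjusted p = 0.149) and Htr1b and Htr2c were -2.75 and -1.77 without it (edgeR adjusted p = 0.0905 for both).

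Depth limits Htr7 and Htr1a in RiboTag (5 to 44 counts per library), and background limits Htr2c, Htr4 and Htr7 in nuclear D2 libraries, all under 2 times its level.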

Other observations

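The introns of Htr2c hold small RNA genes, each with a count of its own, that were looked up after the values of Htr2c were seen. As a fragment over several genes was counted for each, their fragments were also counted for Htr2c. Their part in the Htr2c values was not tested. Snora35, a small nucleolar RNA gene, had 208, 10, 304, 89, 8 and 1 counts in whole cell D2 replicates 1 to 6 and 0 to 41 counts in whole cell D1 libraries. Mir448 had 36, 0, 66, 0, 0 and 2 counts in the same D2 libraries and 0 to 9 in D1 libraries. The D2 values spread over the whole D1 range and above it.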
